A study of Mus musculus with 10 samples.

Results

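The regions described are the H3K27me3 domains of 10 kb or more in mesodermal cells with functional SCL. They were defined by length alone: a peak of the wild-type (WT) H3K27me3 list was taken when its end lay at least 10000 bp from its start. This rule took 413 of 11345 peaks (3.64%), which held 7.77 of the 30.4 Mb in that list (25.5%). Cells of both genotypes were differentiated from mouse embryonic stem (ES) cells for 4 days as embryoid bodies (EBs), free-floating aggregates that form mesoderm, and were sorted for mCherry. In WT, *Scl:mCherry*, the reporter sits in the *Scl* locus and functional SCL is still made. In Delta, *Scl* Δ/Δ:mCherry, both *Scl* alleles lack the basic helix-loop-helix domain, through which SCL contacts DNA. The study's methods describe the reporter line as clonal and heterozygous, made in J1 cells, and the Delta line as engineered from it, so that differences between clones cannot be told apart from genotype. At a slightly later stage, the study found the surface receptor PDGFRα on far more Delta than WT mCherry-positive cells. The make-up of the sorted cells therefore cannot be told apart from genotype either. The strain labels name a cross of C57Bl/6 with an Sv strain whose number differs between labels. SCL, or TAL1, is required for blood to form. ChIP with a *Drosophila* S2 spike-in was done for 4 marks in each genotype, with 1 library per mark and genotype. No test between genotypes was therefore possible, and depth or enrichment of a library cannot be told apart from its genotype.

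H3K27me3 is placed by Polycomb repressive complex 2 and is found over genes that are kept silent, above all genes for developmental transcription factors. H2AK119ub is placed by Polycomb repressive complex 1 at many of the same genes. H3K4me3 marks gene starts, and its presence together with H3K27me3 in early embryonic cells is known as a bivalent state. H3K27ac sits on the same residue as H3K27me3 and marks active starts and enhancers. Long H3K27me3 domains are best known from the Hox clusters, whose genes give cells their position along the body.

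Sequence of the mm9 reference (NCBIM37) is printed for 5 windows. Those at *Hand1*, *Tbx20* and *Kcnq1* lie where domains were interrupted in Delta, at sites that differed widely in CpG content. The *Foxf1a* and *Hoxc5* windows lie in no interruption. Each window is read 5′ to 3′ on the plus strand with CpG dinucleotides in capitals. Windows overlapping an annotated untranslated region were passed over, and where a stretch was longer the one richest in CpG within the named stretch was taken, which is a choice by CpG content. The *Hand1* window was chr11:57646321-57646620, upstream of the start of *Hand1* and within bases that had H3K27ac and no H3K27me3 peak in Delta. The *Tbx20* window was chr9:24578747-24579046, upstream of *Tbx20* and inside the interruption seen in Delta. The *Foxf1a* window was chr8:123608507-123608798, the whole Delta H3K27ac peak of that domain, in an exon of *Foxf1a*. The *Hoxc5* window was chr15:102844664-102844937, in an exon of *Hoxc5* within bases of the longest domain that had both H3K4me3 and H2AK119ub in WT. The *Kcnq1* window was chr7:150288266-150288565, between genes in the longest interruption of a domain at *Kcnq1*.
Hand1 window: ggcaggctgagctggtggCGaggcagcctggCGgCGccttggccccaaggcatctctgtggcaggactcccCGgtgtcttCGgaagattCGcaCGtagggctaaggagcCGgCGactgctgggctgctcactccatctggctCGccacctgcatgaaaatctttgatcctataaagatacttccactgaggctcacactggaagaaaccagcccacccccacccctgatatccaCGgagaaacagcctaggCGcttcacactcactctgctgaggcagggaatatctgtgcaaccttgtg
Tbx20 window: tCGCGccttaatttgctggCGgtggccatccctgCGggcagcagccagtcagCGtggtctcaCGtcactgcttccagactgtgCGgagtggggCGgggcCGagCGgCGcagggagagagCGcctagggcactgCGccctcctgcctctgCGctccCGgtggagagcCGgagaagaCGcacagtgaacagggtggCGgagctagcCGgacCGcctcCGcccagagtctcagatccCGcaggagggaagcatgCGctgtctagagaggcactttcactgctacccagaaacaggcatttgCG
Foxf1a window: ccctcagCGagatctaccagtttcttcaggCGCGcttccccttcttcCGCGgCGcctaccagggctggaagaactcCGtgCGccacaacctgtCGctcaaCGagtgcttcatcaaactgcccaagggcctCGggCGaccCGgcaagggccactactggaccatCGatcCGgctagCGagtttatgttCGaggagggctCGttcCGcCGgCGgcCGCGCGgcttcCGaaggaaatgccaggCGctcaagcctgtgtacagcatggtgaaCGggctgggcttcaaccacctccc
Hoxc5 window: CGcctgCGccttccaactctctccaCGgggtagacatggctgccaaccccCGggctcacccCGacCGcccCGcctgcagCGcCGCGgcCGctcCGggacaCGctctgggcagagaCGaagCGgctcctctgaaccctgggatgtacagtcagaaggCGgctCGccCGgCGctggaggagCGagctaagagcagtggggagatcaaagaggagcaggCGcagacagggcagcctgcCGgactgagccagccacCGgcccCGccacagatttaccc
Kcnq1 window: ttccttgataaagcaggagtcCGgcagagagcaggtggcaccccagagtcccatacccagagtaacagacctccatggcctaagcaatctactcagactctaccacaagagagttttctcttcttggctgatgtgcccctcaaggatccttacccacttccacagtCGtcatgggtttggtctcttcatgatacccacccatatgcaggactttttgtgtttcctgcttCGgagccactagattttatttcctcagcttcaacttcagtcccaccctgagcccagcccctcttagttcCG

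These windows held 12 CpGs in 300 bases at *Hand1* and 24 at *Tbx20*. There were 27 in 292 bases at *Foxf1a*, 24 in 274 at *Hoxc5* and 4 in 300 at *Kcnq1*. Even the window richest in CpG within the *Kcnq1* interruption was therefore far poorer than those at the gene starts.

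Domain lengths ran from 10011 to 142467 bp with a median of 15105 bp. By length, 203 were shorter than 15000 bp, 90 were from 15000 to under 20000 bp, 79 from 20000 to under 30000 bp, 31 from 30000 to under 50000 bp, and 10 were longer. The shortest domain, at *Gad2*, and the longest peak left out, 9986 bp at *Sfrp1*, differed little, with fold enrichments of 7.33 and 8.37, and each was covered whole by 1 Delta peak. The domains were also among the stronger peaks of their list. Their fold enrichment over local background had a median of 7.98 (range 3.72 to 12.1), against 3.67 for the 10932 shorter peaks (range 1.72 to 12.1). Domains were most frequent on chromosome 19 (18 domains, 0.293 per Mb), chromosome 2 (49, 0.270 per Mb) and chromosome 11 (32, 0.263 per Mb). They were sparse on chromosome 16 (5, 0.0509 per Mb) and on the X chromosome (6, 0.0360 per Mb), with domains at *Sox3* and *Pcdh19* among them. Densities of genes and of all WT H3K27me3 peaks per chromosome are not given, so these have no background beside them.

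A protein-coding transcription start site (TSS) lay inside 356 of the 413 domains (86.2%, 95% Wilson interval 82.5 to 89.2). The share was 77.4% (74.9 to 79.7) among 1163 peaks of 5 to under 10 kb and 35.8% (34.9 to 36.7) among all shorter peaks. These intervals cover counting error only, and neighbouring peaks are not independent. Most domains with a TSS were devoted to 1 gene: 285 held the TSS of 1 coding gene, 65 of 2, and 6 of 3 or more. In all, 459 of 22372 coding genes (2.05%) had a TSS in a domain, and 258 of them lay whole within it. Noncoding genes that began in domains included 70 lincRNA genes and 29 miRNA genes, among them *Mir10a*, *Mir10b* and *Mir196b* in the Hox clusters.

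Among the lists of gene families, homeobox genes had the largest shares in domains. Of 40 annotated Hox entries (39 symbols), 36 had a TSS in a domain and the other 4, among them *Hoxb1*, *Hoxb2* and *Hoxd1*, lay in shorter H3K27me3 peaks. Of 89 genes of other homeobox families, which pattern the nervous system, limbs and organs, 65 (73.0%) were in a domain. The share was 7 of 15 for T-box genes, 15 of 43 for forkhead genes, 14 of 30 for basic helix-loop-helix genes, 6 of 19 for Sox genes and 6 of 19 for Wnt ligands. It fell to 1 of 22 for Fgf ligands and 1 of 21 for Bmp and Gdf ligands, of which 13 and 8 were in shorter peaks instead. Of 7 cyclin-dependent kinase inhibitor genes, which restrain cell division, 4 were in domains, *Cdkn2a* and *Cdkn2b* sharing 1 of 41650 bp. The background over all coding genes was 2.05%. Since the lists were drawn up with earlier results known, these shares are descriptions and were not tested.

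Lists for lineages of mesoderm had different shares in domains. Of 14 cardiac genes 7 were in domains, namely *Gata4*, *Hand1*, *Hand2*, *Isl1*, *Nkx2-5*, *Tbx5* and *Tbx20*, all encoding transcription factors of the heart. Of 12 paraxial genes 6 were in domains, *Dll1*, *Foxc1*, *Foxc2*, *Pax1*, *Pax3* and *Uncx*. Of 19 blood and endothelial genes only *Sox17*, an endothelial and endodermal factor, was in a domain, while 8 were in shorter peaks and 10 in none. All 7 markers checked for the labelled mesoderm, *Kdr*, *Etv2*, *Lmo2* and *Tal1* among them, had H3K4me3 within 2500 bp of a TSS in both genotypes. By TSS in WT, 1 of the 7, *Pdgfra*, was in a domain, 3 were in shorter H3K27me3 peaks and 3 in none. The neural markers *Pax6* and *Neurog1* were in domains in both genotypes, as were *Foxa2* and *Sox17* of 3 endodermal markers. Of 3 pluripotency markers none was in a domain. *Nanog* had no peak of any list within 2500 bp of a TSS, *Zfp42* had H3K4me3 in both genotypes, and *Pou5f1* had H3K27me3 in both, H2AK119ub in WT and H3K4me3 in Delta.

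**Figure D1:**
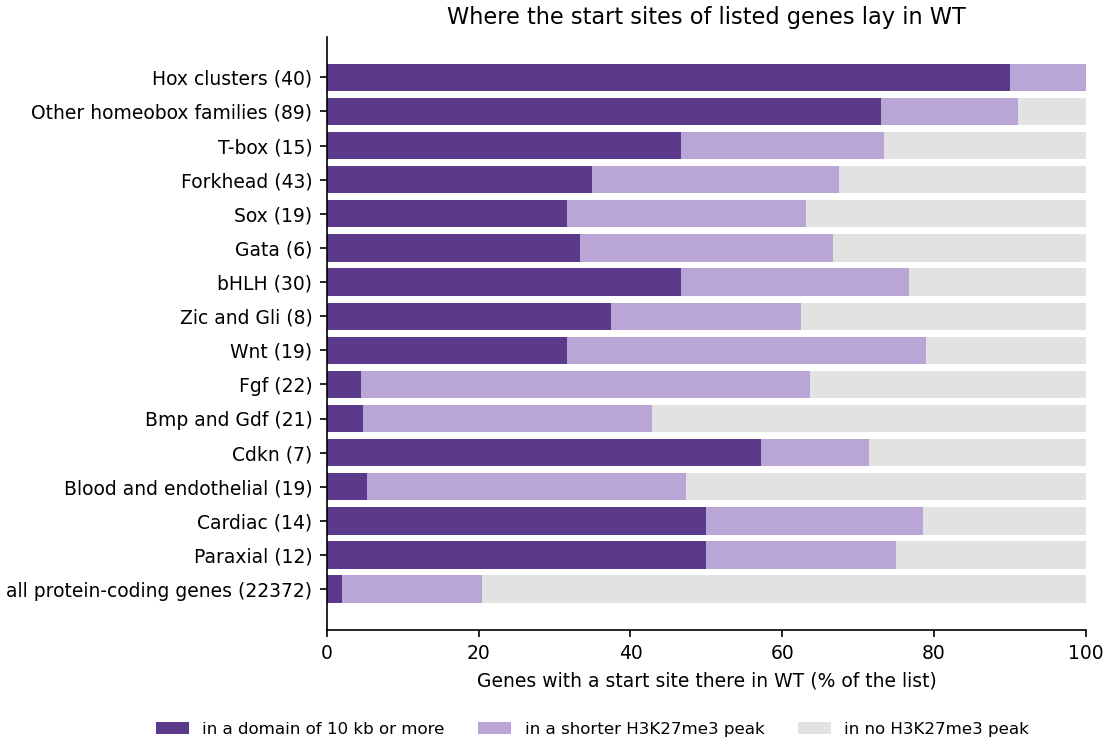
Share of the genes of each list (number of genes in parentheses, horizontal axis in percent) whose start site lay in a WT H3K27me3 domain of 10 kb or more, in a shorter peak, or in none. Hox genes had 36 of 40 entries in domains and blood and endothelial genes 1 of 19, against 459 of 22372 coding genes.

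The 57 domains without a coding TSS were not featureless. The nearest coding TSS was 406 to 353439 bp away with a median of 23122 bp, and 4 domains had one within 2500 bp. A noncoding gene began in 17 of them, and 21 lay within 50 kb of another domain. One such domain, of 18015 bp, began 2 lincRNA genes 187545 bp from *Mef2c*, which encodes a muscle and heart factor. H3K4me3 was present in WT in 51 of the 57 (89.5%), against 346 of 356 domains with a coding TSS (97.2%). Their CpG content was also high, with a median of 22.4 CpG per kb against 26.7 for domains with a coding TSS and 8.34 for the genome. A domain on chromosome 7 (chr7:122330803-122340880) stood apart with 7.84 CpG per kb, no coding TSS within 259563 bp, and neither H3K4me3 nor H2AK119ub in WT.

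Long domains were less dense in CpG than short peaks. All domain bases together held 25.6 CpG per kb, against 28.2 in peaks of 5 to under 10 kb and 33.0 in all shorter peaks. The CpGs were concentrated where H3K4me3 lay. Domain bases under WT H3K4me3 peaks held 68.8 CpG per kb and the other domain bases 18.7. For H2AK119ub in WT the values were 32.8 and 22.6. At single domains the content ran from 7.84 to 59.4 CpG per kb, the highest at *Hic1*, a tumour suppressor gene.

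Of the other 7 lists, that of H3K27me3 in Delta covered the domains most fully. All 413 domains were overlapped by a Delta H3K27me3 peak, a count of 0 absent domains that allows a share of up to 0.726%. Over all WT H3K27me3 peaks, 26.5% had no Delta peak, and among peaks of 5 to under 10 kb 2 of 1163 had none. Delta peaks covered 95.8% of domain bases. In single domains the share ran from 70.5% to 100% with a median of 97.4%, and 116 domains were covered whole. Fold enrichment in Delta relative to WT had a median of 1.06 over domains (range 0.668 to 1.73), close to 1.05 in 7328 pairs of 1 WT and 1 Delta peak across the list. Peak coverage and fold enrichment here carry no described spike-in scaling and cannot show a genome-wide change. From spike-in-scaled signal and a western blot, the study reports a global reduction of H3K27me3 and H2AK119ub in Delta cells.

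H3K4me3 was present in nearly all domains but took up little of their length. In WT 397 domains had an H3K4me3 peak (96.1%, 93.8 to 97.6) and in Delta 396 (95.9%, 93.5 to 97.4). Peaks of 5 to under 10 kb had one in 91.3% and 90.7%. H3K4me3 covered 13.7% of domain bases in WT and 12.2% in Delta, against 26.8% and 25.6% in the shorter peaks. In both genotypes this share was lower in each longer length class, and in Delta it went from 47.7% in WT H3K27me3 peaks shorter than 1000 bp to 7.86% in those of 30000 bp or more. H3K4me3 was called in WT only in 6 domains (1.45%) and in Delta only in 5 (1.21%). Over all WT H3K27me3 peaks these shares were 2.71% and 1.64%. The 11 domains with no H3K4me3 in either genotype included *Uncx*, *Ncan*, *Apc2* and *Kcnk15*, which were named after their values were seen.

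H3K27ac was all but missing from the domains. No domain had an H3K27ac peak in WT, which allows a share of up to 0.726%, and 3 had one in Delta (0.726%, 0.247 to 2.11). Peaks under 10 kb carried H3K27ac in 17.3% in WT and 18.2% in Delta, and peaks of 5 to under 10 kb in 0.946% and 1.63%. Most of the shorter peaks with H3K27ac were shorter than 1000 bp. H3K27ac peaks of WT lay within 10000 bp outside an edge of 14 domains (3.39%, 2.03 to 5.61). Those of Delta did so at 19 domains (4.60%, 2.96 to 7.07). In WT, H3K27ac was thus close to some domains without entering any. The same shares for shorter H3K27me3 peaks are not given, so these have no background beside them.

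**Figure D2:**
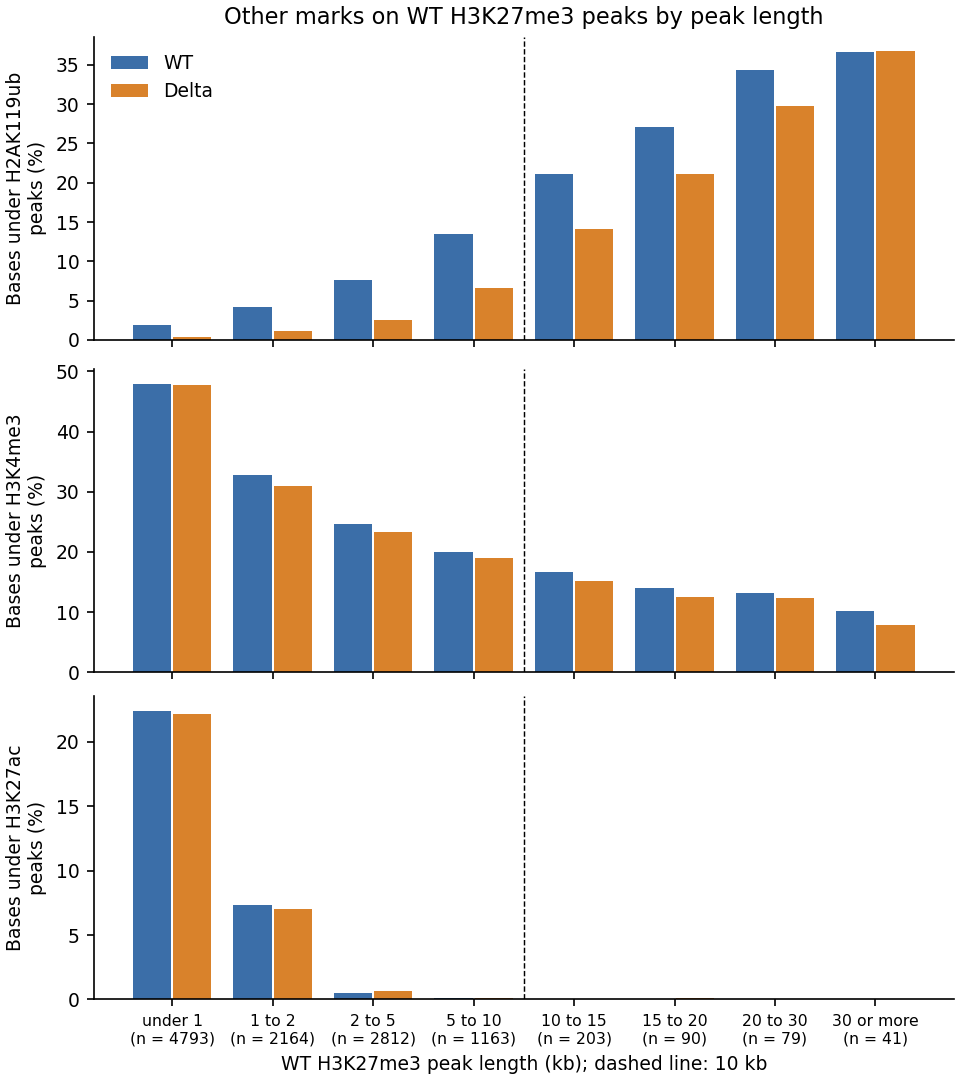
Share of bases (vertical axes, percent) of WT H3K27me3 peaks under H2AK119ub, H3K4me3 and H3K27ac peaks of WT (blue) and Delta (orange), by length of the H3K27me3 peak in kb, with the number of peaks. Right of the dashed line are the domains, where H2AK119ub rose with length to 36.6% in WT and 36.7% in Delta, and H3K4me3 fell to 10.2% and 7.86%.

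The opposite held for H2AK119ub, which was concentrated on the domains. An H2AK119ub peak was present in 383 domains in WT (92.7%, 89.8 to 94.9) and 352 in Delta (85.2%, 81.5 to 88.3). Among shorter peaks the shares were 16.7% and 7.91%, and among those of 5 to under 10 kb 59.8% and 39.4%. The H2AK119ub peaks were weak, and those with a −log10 q of at least 3 were on 8.23% of domains in WT and 7.75% in Delta. H2AK119ub covered 29.3% of domain bases in WT and 24.8% in Delta. The WT list had 1426 of its 4922 peaks on domains (29.0%) and the Delta list 1211 of 2388 (50.7%). By length, 43.2% of all WT H2AK119ub bases and 67.7% of all Delta ones were on domains.

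The study lists more mapped reads for the WT than for the Delta H2AK119ub library, and the part of depth in the following values was not tested. The lower total of H2AK119ub bases in Delta was not spread evenly over regions. On domains they came to 1924 kb in Delta and 2273 kb in WT, a ratio of 0.847. Outside the domains the ratio was 0.307, and outside all WT H3K27me3 peaks 0.122. With peaks of −log10 q of at least 3 alone, it was 0.678 on domains and 0.180 on shorter H3K27me3 peaks. Within H3K27me3 peaks the ratio rose with WT peak length in every step, from 0.186 under 1000 bp through 0.277, 0.332 and 0.484 in the classes below 10000 bp. It was 0.667 in domains of 10000 to under 15000 bp, 0.780 from 15000, 0.867 from 20000 and 1.00 in the 41 domains of 30000 bp or more. H3K27me3 fold enrichment moved with length over the same classes, with medians from 3.30 to 9.07 and 8.66 in the longest class, and its part in this was not tested. H3K4me3 showed no such rise, with ratios of 0.993 in the shortest class and 0.769 in the longest.

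**Figure D3:**
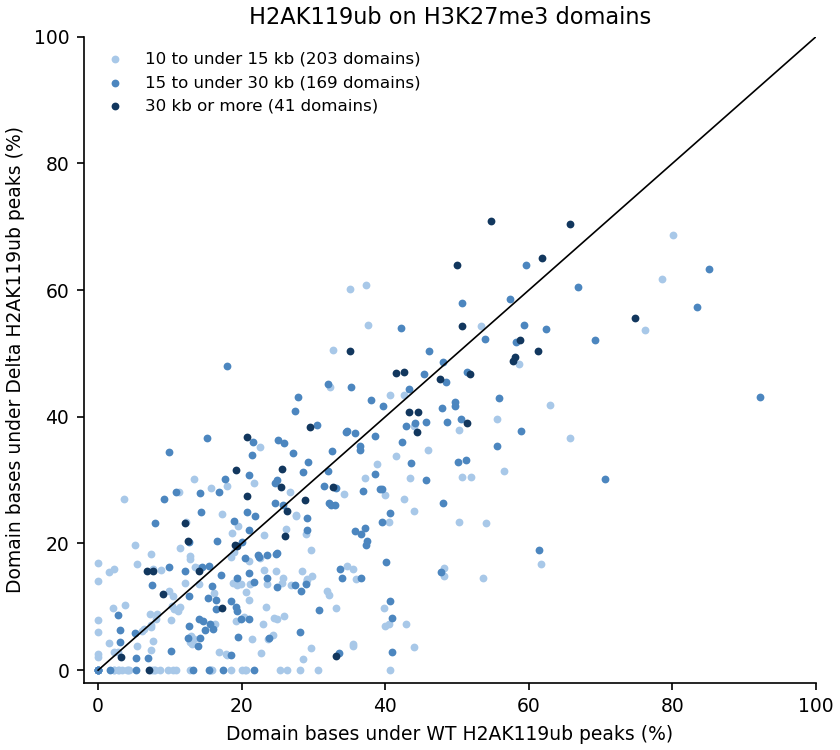
Share of each domain's bases under H2AK119ub peaks in WT (horizontal axis, percent) and Delta (vertical axis, percent), 1 point per domain, shaded by domain length. More bases were covered in WT in 259 domains (below the line of equality), in Delta in 129 and equally in 25, and the darkest points, domains of 30 kb or more, lay on both sides of the line.

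Presence of H2AK119ub differed between genotypes in 43 domains. It was called in both in 346, in neither in 24, in WT only in 37 (8.96%) and in Delta only in 6 (1.45%). Over all WT H3K27me3 peaks 10.6% had it in WT only and 1.86% in Delta only. Of peaks with WT H2AK119ub, the share without a Delta peak was 9.66% in domains, 43.2% in peaks of 5 to under 10 kb and 63.8% in all shorter peaks.

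Among the WT-only domains with many H2AK119ub bases, the *Pcdhgc5* domain, at a clustered protocadherin, had 4502 bp of H2AK119ub in WT. A domain on chromosome 5 near *Tacc3* had 4306 bp, *Prrt4* 3769 bp and *Celsr3*, which encodes an adhesion receptor of neurons, 3617 bp. *Unc5a*, a netrin receptor gene, had 3449 bp, the receptor gene *Fgfr3* 3112 bp and a domain of 19652 bp near *Lmx1b* 3024 bp. All had 0 bp in Delta. The 6 Delta-only domains were those of *Cebpa* (1986 bp), *Vgll2* (1803 bp), *Hes7* (1044 bp), *Tcf21* (780 bp), *Klf14* (319 bp) and *Cdh8* (224 bp). *Cebpa*, *Hes7*, *Tcf21* and *Klf14* encode transcription factors.

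Where both genotypes had H2AK119ub, the ratio of Delta to WT bases had a median of 0.839 and ran from 0.0640 to 10.4. It was 0.5 or lower in 78 of 346 domains and 2 or higher in 22. The lowest ratios, which were looked up after the values were seen, were at a domain near *Hsd17b12* holding *Mir129-2* (3362 bp in WT, 215 bp in Delta), the imprinted gene *Grb10* (11149 and 737 bp), *Ncan* (6201 and 425 bp) and the imprinted gene *Dio3* (6070 and 494 bp). The highest were at *Dmrt2* (195 and 2029 bp), *Lrrc8e* (512 and 3787 bp) and *Bhlha9* (263 and 1859 bp). The next in order were a domain near *Slfn5* (239 and 1155 bp), *Atoh1* (572 and 2234 bp), *Prdm13* (2152 and 7556 bp), *Gm13334* with *BC061194* (471 and 1507 bp), *Olig3* (740 and 2263 bp) and *Sox17* (1483 and 4382 bp). By called bases the direction at a domain thus ran both ways, although more domains had fewer bases in Delta. Several of the highest ratios rest on few WT bases, such as 195 bp at *Dmrt2*. Most of these peaks were weak: at −log10 q of at least 3 only 8.23% of domains had one in WT and 7.75% in Delta. The direction at a single domain is therefore uncertain.

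H3K27me3 itself was read in Delta as the number and summed length of the Delta peaks overlapping a domain. In 342 domains there was 1 Delta peak, in 61 there were 2, in 8 there were 3, and 1 domain each had 4 and 5. The 71 split domains were 17.2% (13.9 to 21.1), against 2.20% of all WT H3K27me3 peaks and 7.65% of those of 5 to under 10 kb. The count depended on short gaps. With the peaks of both lists joined across gaps of up to 3000 bp, 52 of the 599 domains then formed were split (8.68%). A longer region has more room for a break: split domains were 28 of 203 from 10000 bp, 18 of 90 from 15000, 12 of 79 from 20000 and 13 of 41 from 30000 bp. The summed length was at least 20% below the WT length in 10 domains, called shrunk (2.42%, 1.32 to 4.40), and at least 25% above it in 21, called grown (5.08%, 3.35 to 7.65). Over all WT peaks the shares were 42.7% and 22.0%. A lone Delta peak with a length between these limits was present at 314 domains (76.0%, 71.7 to 79.9).

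Because the domains were selected on WT length, the reverse reading is given too. Of 448 Delta H3K27me3 peaks of 10 kb or more, 100 were split in WT (22.3%, 18.7 to 26.4), 32 were shrunk (7.14%, 5.10 to 9.91) and 30 grown (6.70%, 4.73 to 9.40). WT peaks covered 93.9% of their bases, and none lacked a WT peak. Splitting was thus at least as frequent in this direction, with intervals that overlap. Of 445 loci, that is groups of overlapping WT and Delta peaks with a mean length of 10 kb or more, 61 had more pieces in Delta and 81 more in WT. Their summed length in Delta was 1.01 times that in WT.

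**Figure D4:**
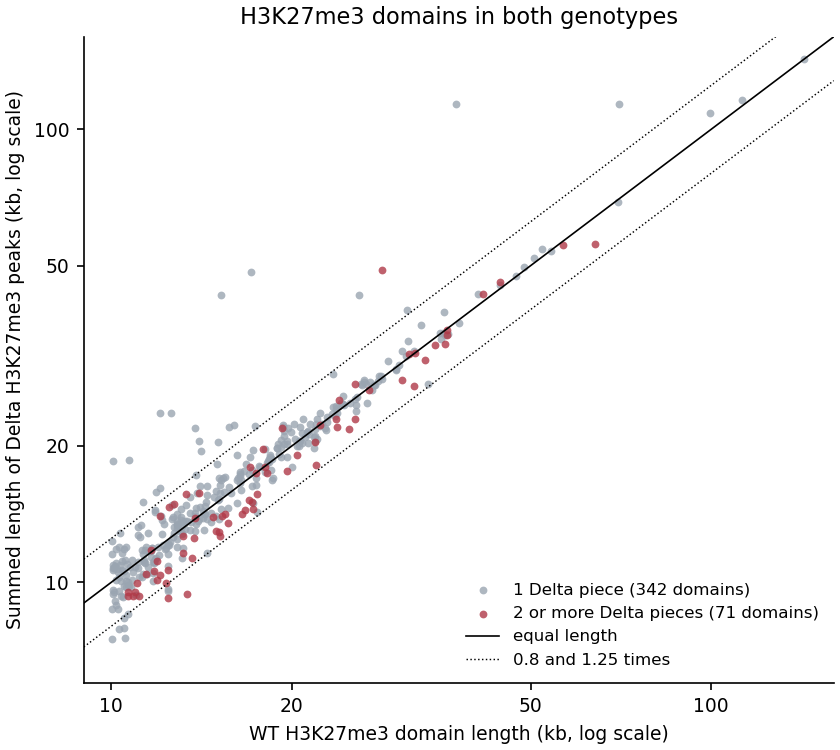
Length of each WT H3K27me3 domain (horizontal axis, kb, log scale) against the summed length of the Delta H3K27me3 peaks overlapping it (vertical axis, kb, log scale), red where there were 2 or more Delta peaks. Of 413 domains, 10 lay on or below the lower dotted line, 20% below equality, and 21 on or above the upper one, 25% above it.

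Growth in length went mostly with joining of peaks. In 20 of the 21 grown domains the Delta peak also overlapped another WT peak. A Delta peak was counted at its full length for every domain it overlapped, so the grown share is largely a count of joined peaks. The largest ratio was at the Hoxd cluster, where separate WT domains of 70091 bp (*Evx2* to *Hoxd3*) and 37614 bp (*Hoxd3* and *Hoxd4*) lay in 1 Delta peak of 113628 bp, giving length ratios of 1.62 and 3.02. A domain of 17121 bp near *Lmx1b*, a limb and kidney factor gene, had a ratio of 2.83, and the domain of the ligand gene *Wnt10b* (15246 bp) one of 2.82. Their Delta peaks, of 48386 and 42995 bp, each reached beyond the domain over further WT H3K27me3. The neighbouring domains of *Duox2* and *Duoxa2* and of *Duoxa1* and *Duox1*, which serve the making of hydrogen peroxide, had ratios of 1.96 and 1.88. These WT domains of 12068 and 12555 bp shared a single Delta peak of 23629 bp, so the ratios reflect joining and not a longer stretch of H3K27me3. Only the domain of *Ihh*, a hedgehog ligand gene, was grown with no further WT peak under its Delta peak, at a ratio of 1.33.

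Edges of the domains moved little. Of 826 edges, 627 had the outermost Delta edge within 1000 bp, 63 had Delta ending more than 1000 bp inside, and 136 had it running more than 1000 bp outside. For the 896 edges of the Delta domains read in WT, these last counts were 114 and 109. Bases not kept in Delta were poor in CpG. Domain bases kept in Delta held 26.1 CpG per kb and those not kept 13.9, while Delta bases beyond the WT edges held 17.1.

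The 10 longest domains were covered almost in full by Delta H3K27me3 peaks, with 1 exception. The Hoxc, Hoxa, Hoxb and first Hoxd domains were covered at 97.8%, 99.4%, 100% and 100% by 1 Delta peak each. The *Zic1* and *Zic4* domain of 69842 bp, at factors of neural patterning, was covered at 98.9%. The domains of the nuclear receptor genes *Nr2f2* (54006 bp) and *Nr2f1* (50697 bp) and of *Nfix* (52138 bp) were covered at 98.9% or more. The *Dmbx1* domain of 56593 bp was in 3 pieces yet covered at 96.4%. The exception was the *Pcdhgc5* domain of 64082 bp, with 5 pieces and 87.0% covered. H2AK119ub in the Hox domains was similar in both genotypes, at 53.3% of bases in WT and 54.3% in Delta over 6 domains, whereas H3K4me3 covered 10.2% and 6.74%. H3K4me3 was not lower in Delta at the longest, the Hoxc domain, where it covered 4466 bp in WT against 4828 bp in Delta. On the Hoxa domain H2AK119ub covered 69555 bp in WT against 73320 bp in Delta and H3K4me3 12512 and 7466 bp. On the Hoxb domain these were 58434 and 51850 bp and 21047 and 13864 bp. At *Zic1* and *Zic4* H3K4me3 covered 3086 bp in WT against 592 bp in Delta.

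The breaks in the split domains were short. There were 84 gaps between Delta peaks, of 922 to 4055 bp with a median of 1210 bp, and 12 were of 1000 bp or less. A coding TSS lay in 12 of the 84, 1 in each of 12 domains, and these gaps differed in content from the others. WT H3K4me3 was present in 9 of the 12 and in 5 of the other 72. No test of this is given, since a coding TSS and H3K4me3 go together at most genes. The 12 domains included those of *Gm13334*, *Irx3*, *Tbx20*, *Stra6*, *Celsr3*, *Hand1*, *Vtn*, *Gata4* and *Ccdc65*, some named after their values were seen. Their H3K4me3 came to 52.5 kb in WT and 55.6 kb in Delta, a ratio of 1.06, with more bases in Delta in 8 of 12. In the 59 other split domains the ratio was 0.967, and in the 342 domains in 1 piece 0.867. By gene list, 4 of 7 domains with a cardiac gene were split (*Hand1*, *Tbx20*, *Gata4* and *Isl1*), beside 71 of all 413. The count was 1 of 6 with a paraxial gene, 0 of 6 with a Hox gene and 9 of 63 with another homeobox gene. For cyclin-dependent kinase inhibitors it was 2 of 3, for Gata 1 of 2 and for Zic and Gli 1 of 2. Forkhead had 2 of 15, basic helix-loop-helix 2 of 14, T-box 1 of 7, Sox 1 of 6 and Wnt 0 of 6. The lists overlap, and most hold few domains.

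Seen from the genes, 406 of the 459 with a TSS in a WT domain also had one in a Delta peak of 10 kb or more. For 38 the Delta peak was shorter, though 8000 bp or more in 21 of them. The remaining 15 of 459 had no TSS under a Delta H3K27me3 peak, whereas over all 4573 coding genes with a TSS under a WT H3K27me3 peak 21.4% had none in Delta. H3K4me3 was within 2500 bp of a TSS in 14 of the 15 in WT and 13 in Delta, beside 416 and 409 of all 459. H3K27ac was within that distance in 1 of the 15 in WT and 4 in Delta, beside 2 and 9 of all 459. Besides *Hand1*, *Tbx20*, *Irx3*, *Celsr3*, *Vtn* and *Ccdc65*, they included *Zic2*, *Cdkn2b*, *Rnf220* and *Mapk15*. In the opposite direction, of 489 genes with a TSS in a Delta peak of 10 kb or more, 73 were in a shorter WT peak, *Gata2* and *Cbfa2t3* among them, and 10 had no TSS under a WT peak. Over all 4320 genes with a TSS under a Delta peak, 16.8% had none under a WT one. *Fli1*, a blood and endothelial factor gene, was among the 10 with a Delta peak of 11206 bp and H3K27ac within 2500 bp of a TSS in WT only.

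The 3 domains that carried H3K27ac in Delta were all split there. Over all WT H3K27me3 peaks 3.33% had H3K27ac in Delta only, and among those of 5 to under 10 kb 1.12% did. The interval for the 3 of 413, 0.247 to 2.11%, lay below the first share and held the second. At a −log10 q of at least 3, 1 of the 3 was left, that of *Tbx20*. The longest of the 3 H3K27ac peaks was at the domain of *Hand1* (chr11:57638386-57653486), a factor gene of the heart and of extraembryonic mesoderm. WT H3K27me3 ran over 15101 bp with a fold enrichment of 5.88. In Delta it was in pieces of 6825 and 6112 bp, with fold enrichments of 4.41 and 4.39, on either side of a gap of 1256 bp that held the *Hand1* TSS. An H3K27ac peak of 1291 bp lay over this TSS in Delta (fold enrichment 4.17, −log10 q 2.51). H3K4me3 covered 4038 bp of the domain in 4 peaks in WT and 7040 bp in Delta, where 1 peak of 6624 bp crossed the gap, and H2AK119ub 1995 bp in WT against 0 bp in Delta.

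*Tbx20*, which encodes a cardiac T-box factor (chr9:24573002-24586375), had the lowest Delta coverage of all domains, 70.5% of 13374 bp. Delta H3K27me3 was in pieces of 4550 and 4872 bp, with fold enrichments of 3.61 and 3.67 against 5.45 in WT. The gap of 1573 bp held the *Tbx20* TSS, and an H3K27ac peak of 164 bp in Delta (−log10 q 3.36) lay under the end of the first piece, beside the gap. H2AK119ub covered 1706 bp in WT against 0 bp in Delta. H3K4me3, unlike at *Hand1*, was similar, with 6273 bp in WT against 5736 bp in Delta.

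*Foxf1a*, a factor gene of lateral mesoderm (chr8:123592600-123618033), was the most fully covered by H2AK119ub of all domains in WT. H2AK119ub covered 92.2% of its 25434 bp in WT and 43.2% in Delta. Its Delta H3K27me3 pieces were 20840 and 2060 bp, so that the break lay towards 1 end, and the TSS and the H3K27ac peak of 292 bp (−log10 q 2.38) were under the longer piece. H3K4me3 covered 5456 bp in WT against 11261 bp in Delta, with a peak of 4185 bp over the TSS in WT and one of 9663 bp in Delta.

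*Irx3*, a homeobox factor gene (chr8:94318583-94334243), had no H3K27ac in either genotype. Its domain of 15661 bp, with a fold enrichment of 8.55, was in pieces of 6592 and 6915 bp in Delta with fold enrichments of 7.76 and 7.49. The gap of 1347 bp held the TSS, and H3K4me3 covered all of that gap in WT and 1070 bp of it in Delta. H2AK119ub covered 7851 bp of the domain in WT and 5158 bp in Delta. *Gata4*, a cardiac and endodermal factor gene, lay in 31965 bp that were covered at 82.5% in Delta, with a gap of 3690 bp holding a *Gata4* TSS. H2AK119ub there was 9222 bp in WT against 8574 bp in Delta.

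**Figure D5:**
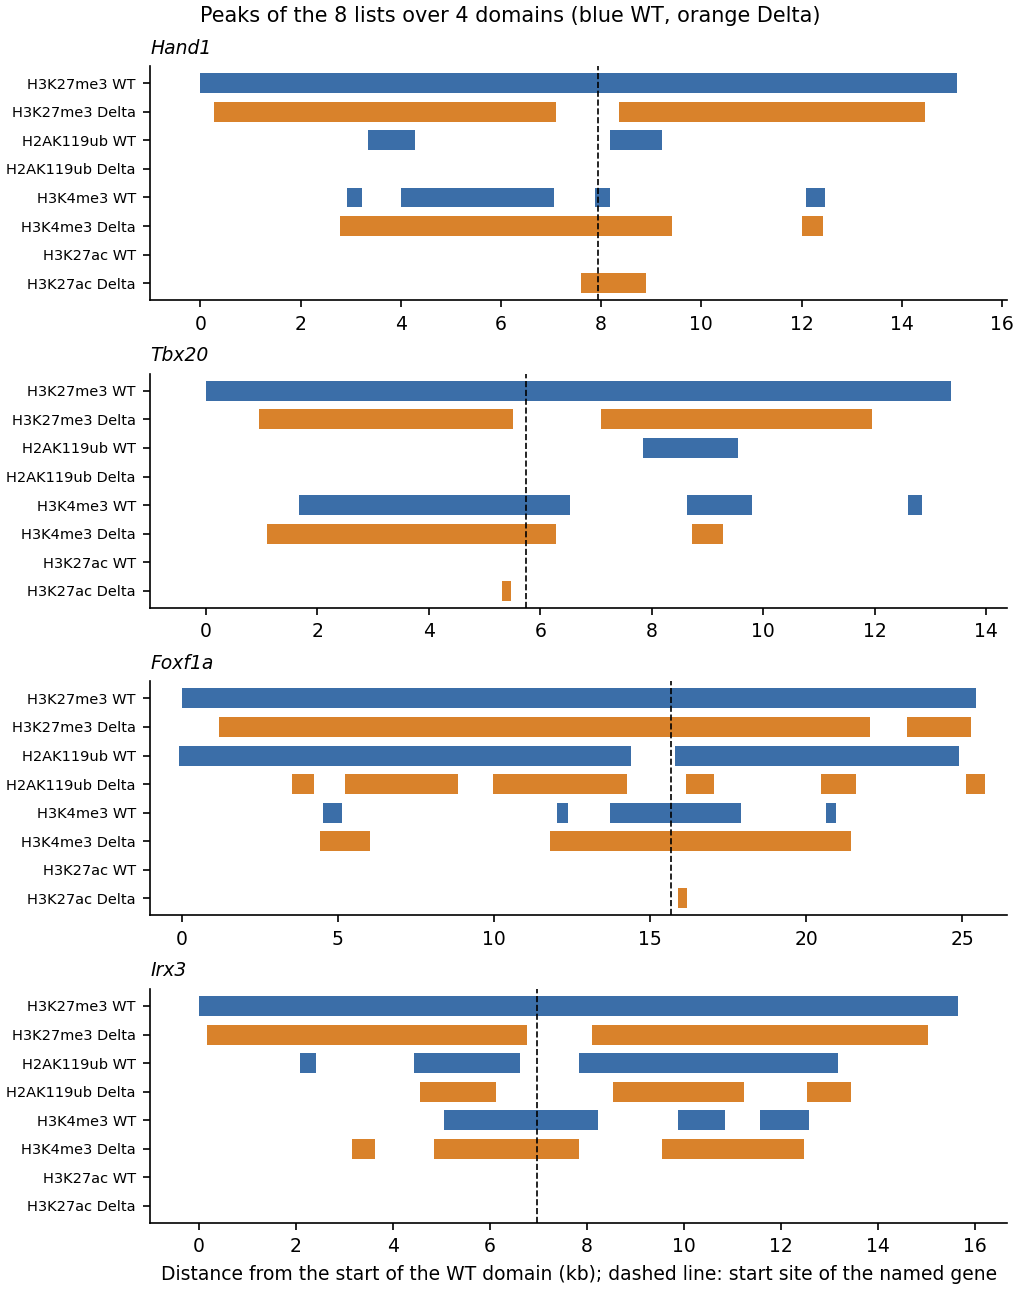
Peaks of the 8 lists (rows, WT in blue and Delta in orange) over the domains of *Hand1*, *Tbx20*, *Foxf1a* and *Irx3*, by distance from the start of the WT domain in kb, with the start site of the gene as a dashed line. The dashed line falls in a gap between Delta H3K27me3 peaks at *Hand1*, *Tbx20* and *Irx3*, and under the longer Delta peak of 20840 bp at *Foxf1a*.

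Fold enrichment in Delta was low at some of these genes and not at others. With pieces weighted by length, the ratio of Delta to WT fold enrichment was lowest of 413 domains at *Tbx20* (0.668), followed by *Foxf1a* (0.693) and *Pdgfra* (0.694), which encodes a receptor of mesoderm. *Tbx2* (0.717), *Grb10* (0.739), *Hand1* (0.748) and *Msx1* (0.749) came next, and the median was 1.06. *Irx3* was 19th in this order (0.891) and *Gata4* 185th (1.05). These ratios set 2 libraries with their own inputs side by side and were ordered after the values were seen. At *Pdgfra* H3K27me3 was 1 piece covering 96.9% of 11095 bp, H2AK119ub covered 2270 bp in WT against 0 bp in Delta and H3K4me3 covered 3503 bp in WT against 6018 bp in Delta. The highest ratio, 1.73, was at *Slc32a1*, a neuronal transporter gene, where H3K4me3 covered 6558 bp in WT against 455 bp in Delta.

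The other domains with the lowest Delta coverage were mostly short. They were *Slc12a5* (71.5% of 10554 bp), a domain near *Hapln2* (71.9% of 12440 bp, 3 pieces), *Ccdc65* (72.8% of 10939 bp), a domain near *Slc45a3* (74.7% of 10032 bp), *Msx1* (75.2% of 12347 bp, 3 pieces), *Kirrel2* with *Nphs1* (75.6% of 10482 bp) and the imprinted gene *Kcnq1* (76.5% of 13611 bp, 3 pieces). Of the domains with the most pieces, that of *Ccdc33* and *Stra6* had 4 over 44468 bp and was the poorest in CpG among domains with a coding TSS, at 10.7 per kb. *Meis1*, a homeobox partner of Hox proteins, had 3 pieces over 24933 bp and 87.1% covered, and *Pitx3* with *Elovl3* 3 over 21906 bp and 82.7% covered.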

How the data were processed

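Peak lists of 8 ChIP libraries from sorted day 4 EB cells were used. According to the study's methods and the submitters' processing notes, the authors trimmed reads with Trim Galore, mapped them to mm9 and dm3 with Bowtie keeping unique matches, removed duplicates with SAMtools, and called broad peaks per library with MACS2 2.0.10 (broad cutoff 0.05) against the input of the same genotype. Spike-in scaling was not described for peak calls, so lists cannot show a genome-wide change of a mark. The deposited score, which is about 10 times the −log10 q, was not used. The fold enrichment (a ratio) and the −log10 p and q were used as deposited by the authors. The peak lists hold no read depth. The study lists mapped reads per library, which were not used and which differ between genotypes for every mark. The 2 inputs were not analysed here.

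Members, gene lists and rules were chosen with earlier results of these data known. Overlaps needed 1 bp. Coding TSSs came from GENCODE M1 on NCBIM37, the same build, and coordinates are 1-based. Named domains were the 10 longest, the 8 with the lowest Delta coverage, 5 with most pieces, 5 with most growth, up to 8 per genotype with H3K27ac or H2AK119ub in that genotype only, and those with a listed or study gene. Shares have 95% Wilson intervals, and a count of 0 a limit of 3 counts. Interval code was tested on simulated data and checked against bedtools 2.31.1. Python 3.11.15, SciPy 1.17.1 and pysam 0.24.0 were used. Results for some genes and 1 sequence window are not reported here.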

Additional observations from a re-analysis of the deposited data

How the results depend on the processing

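No paired analysis was possible because every group held 1 library, and for the same reason no replicate could be left out. The share of domains split in Delta, 17.2%, rested most on the joining of peaks. It was 8.68% of 599 domains with both H3K27me3 lists joined up to 3000 bp, which changes the set of domains. With only the Delta list joined, which by construction closes gaps, it was 0.484%. It was 9.93% with Delta peaks of −log10 q of at least 3 and 22.3% for Delta domains read in WT. Over loci the measure differed: 13.7% had more Delta than WT pieces. The shrunk share, 2.42%, was 12.5% of the same 599 domains with both lists joined and 1.21% with only Delta joined. It was 5.81% at −log10 q of at least 3, and 4.91% and 0% with length minimums of 8000 and 20000 bp. For Delta domains read in WT it was 7.14%, over loci 1.12% and at a limit of 0.67 0%. The grown share, 5.08%, was 21.5% with only Delta joined and 2.66% at a limit of 1.5. Bases covered by Delta H3K27me3 were 97.6% with Delta joined, and bases not kept then held 12.4 CpG per kb.

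At −log10 q of at least 3 the share of domains with H2AK119ub was 8.23% in WT and 7.75% in Delta, with 0.744% and 0.505% of bases covered, so presence of this mark rests on weak peaks. That of H3K4me3 was 89.6% and 82.1%, and of Delta H3K27ac 0.242%. When 500 bp of overlap was required, H2AK119ub was present in 88.1% and 79.2%, H3K4me3 in 88.9% and 89.1% and Delta H3K27ac in 0.242%. At a length minimum of 8000 bp H2AK119ub was 88.0% and 75.9%, and at 20000 bp 99.2% and 98.3%, with H3K4me3 at 98.3% and 97.5%. The ratio of H2AK119ub bases, Delta over WT, was computed at further settings chosen after seeing the data. At −log10 q of at least 2 it was 0.856 on domains and 0.377 on shorter peaks, and at 3 it was 0.678 and 0.180, so it was higher on domains at each setting. Without chromosomes 1 and 8 the split, shrunk and grown shares were 18.0%, 2.46% and 4.64%, and Delta H3K27me3 covered 95.6% of bases.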
